A study of Mus musculus with 40 samples.

Results

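RNA from mouse embryonic stem cells that lack Dppa2 was compared with RNA from cells of the same line that lack Dux. The comparison asks which effects of losing Dppa2 go beyond the loss of its target gene Dux. It rests on 4 of the 40 samples of the series, chosen by their genotype labels: 2 Dppa2 knockout libraries (Dppa2KO) and 2 Dux knockout libraries (DuxKO). All cells were E14tg2a, an established embryonic stem cell line grown in serum with leukaemia inhibitory factor (LIF), and expression was read as counts of sequenced total RNA per gene. Further libraries were used to place the values: 2 libraries of unedited cells (WT) counted in the same table, 4 libraries in the same table whose cells also lack the corepressor CtBP, and 4 WT and 2 DuxKO libraries of another table. The fits also held the remaining libraries of each table. In the first these were 2 libraries of the Ctbp double knockout alone (CtbpDKO). In the other they were 2 libraries each of Pramel7 overexpression, Pramel7 knockout and Pramel7 overexpression without Dux. The labels do not say how the knockouts were made, whether a line is 1 clone, or whether libraries of 1 genotype came from separate cultures. P-values therefore measure the spread between these libraries, which may be technical, and a difference between 2 clones of cells cannot be told apart from an effect of the genotype.

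Dppa2 and its partner Dppa4 are small DNA-binding proteins of pluripotent cells and early embryos. They bind together at CpG-rich promoters and are known for keeping a set of developmental and germline promoters open to transcription and low in DNA methylation. Dux is a homeobox gene that they help to switch on. Its protein activates genes of the 2-cell embryo, such as the Zscan4 cluster, in the rare embryonic stem cells that enter a 2-cell-like state.

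The 6 Dppa2KO, DuxKO and WT libraries of the table held 29196060 to 36025046 counts. The targeted genes could not check the labels. Dppa2 RNA remained in Dppa2KO, with 1208 and 1027 counts against 1391 and 1323 in DuxKO and 1707 and 1868 in WT, and was lower than in DuxKO by a log2 difference of -0.55 (SE 0.11, edgeR adjusted p = 0.00243). Duxf3, the Dux gene of the table, had 0 counts in all 4 knockout libraries and 1 and 0 in WT. The 10 markers of embryonic stem cells summed to 3349 to 3692 CPM (counts scaled to the size of the library) in Dppa2KO, 2199 to 2240 in DuxKO and 2738 to 2777 in WT, and none was at 0. Of the 17 fibroblast markers, Postn and Fap were at 0 in all 4 knockout libraries, and the list summed to 683 to 717 CPM in Dppa2KO and 738 to 753 in DuxKO, nearly all of it Fn1. The 4 primitive endoderm markers summed to 7.87 to 8.76 CPM in Dppa2KO and 2.28 to 2.76 in DuxKO. The 5 trophoblast markers, with Elf5 at 0, summed to 4.93 to 5.18 and 11.7 to 12.7 CPM. Genes of chromosome 8 stood apart as a whole and are described below with their share of the calls.

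Of 21193 genes tested, 3884 (18.3%) were called at an edgeR adjusted p under 0.05. In Dppa2KO 1988 genes were higher (9.38%) and 1896 were lower (8.95%), and the median log2 fold change of all genes was 0.0015. At least 2-fold differences were called for 747 higher genes (3.52%) and 707 lower genes (3.34%). The lower side held more of the extreme changes: 124 lower genes against 59 higher genes differed by at least 16-fold. Both Dppa2KO libraries were at 0 counts for 79 of the lower genes, and both DuxKO libraries were at 0 for 37 of the higher genes. Leaving out 1 of the 4 libraries left 2377 to 2888 calls, with 2377 without DuxKO replicate 1 and 2443 without DuxKO replicate 2.

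Among called genes with a mean of at least 50 counts in the higher group, libraries that did not overlap and no predicted symbol, the 10 with the largest change in each direction differed in where the WT libraries stood. By group means on the log2(CPM + 0.1) scale, WT lay nearer to DuxKO for all 10 lower genes. Among the higher genes WT lay nearer to Dppa2KO for 7 (Fbxo40, Tfpi, Gpa33, Lncenc1, Pqlc1, Lgals3 and Mtus2) and nearer to DuxKO for 3 (Wbscr25, Sh3rf2 and Cplx2). The lower genes were Meg3, Ddx4, Syce1, Zfp629, Rian, Mirg, H2ac1, Rtl8b, Sohlh2 and Zfp775. Rtl8b, a retrotransposon-derived gene of the X chromosome, held 51 and 59 counts in DuxKO, 0 and 1 in Dppa2KO and 44 and 75 in WT. H2ac1, a germline histone H2A gene, held 344 and 356 counts in DuxKO, 0 and 5 in Dppa2KO and 250 and 213 in WT, and its log2 fold change of -7.31 was -11.42 without Dppa2KO replicate 2. In CPM, every Dppa2KO library was below every DuxKO and WT library for each of these 10 genes.

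**Figure D1:**
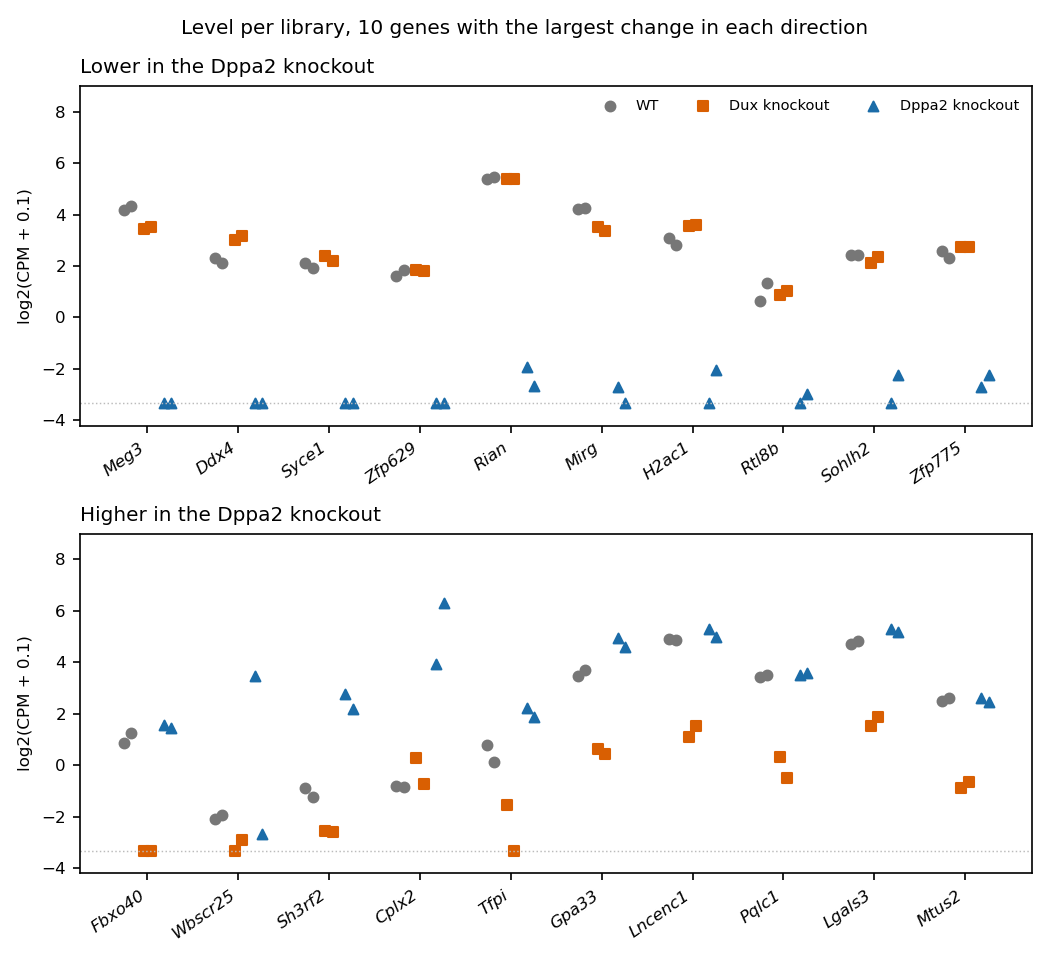
Level of each gene in every library, as log2(CPM + 0.1), for the 10 genes with the largest change in each direction. Points are single libraries (2 each of WT, DuxKO and Dppa2KO) and the dotted line marks 0 counts. In the upper panel the Dppa2KO points lie at or near the line while WT and DuxKO overlap or lie close, and in the lower panel the DuxKO points lie low.

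Genes of the germline, meiosis and the piRNA pathway had the most lower calls by number, on the list with the most members tested. By share, the Dlk1-Dio3 (5 of 7), trophoblast (9 of 20) and smooth muscle (11 of 28) lists had more. Of 52 germline members tested, 19 were lower in Dppa2KO, 5 were higher and 28 were not called. Over all genes 8.95% were lower and 9.38% higher. The median log2 fold change of the list was -0.46, beside 0.0015 for all genes. In tests against WT, 22 members were lower in Dppa2KO, where 8.69% of all genes were lower and 7.67% higher. In DuxKO 10 were lower than in WT, where 9.56% of all genes were lower and 7.94% higher. These tests share the WT libraries. Of the 19 lower members, 2 lie on chromosome 8.

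Ddx4, the RNA helicase known as Vasa that marks germ cells, held 236 and 265 counts in DuxKO and 146 and 131 in WT. It had 0 counts in both Dppa2KO libraries, which makes it at least 100-fold lower than in DuxKO against a floor of 3 counts per library (edgeR adjusted p = 3.26e-08). In CPM its mean was 8.42 ± 0.55 in DuxKO and 4.58 ± 0.44 in WT (SD, n = 2 each), so DuxKO was the highest of the 3 groups. Syce1, a protein of the synaptonemal complex that joins paired chromosomes in meiosis, held 151 and 135 counts in DuxKO, 128 and 113 in WT and 0 in both Dppa2KO libraries. It was at least 57.4-fold lower in Dppa2KO (edgeR adjusted p = 7.11e-08). For both genes no Dppa2KO read was counted while DuxKO and WT held over 100 counts in every library.

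Mov10l1, a helicase needed to make piRNAs, held 232 and 224 counts in DuxKO, 228 and 211 in WT and 15 and 8 in Dppa2KO, a log2 fold change of -4.56 (SE 0.22, edgeR adjusted p = 2.16e-08). Sohlh2, a transcription factor of early germ cells, held 125 and 149 counts in DuxKO, 157 and 160 in WT and 0 and 4 in Dppa2KO. Its log2 fold change of -6.26 became -10.07 without Dppa2KO replicate 2, which holds all 4 of the counts. Neither gene was called between DuxKO and WT, with log2 fold changes of 0.08 (adjusted p = 0.777) and -0.19 (adjusted p = 0.72).

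Other piRNA genes of the list differed among themselves. Piwil2, a PIWI protein, fell from 145 and 144 counts in DuxKO to 44 and 37 in Dppa2KO (log2 fold change -2.10, SE 0.21, edgeR adjusted p = 1.17e-05). Tdrd1, a scaffold of PIWI proteins, held 64 and 69 counts in DuxKO and 16 and 8 in Dppa2KO (log2 fold change -2.72). Mael, a further piRNA factor, held 24 and 35 counts in DuxKO, 7 and 4 in Dppa2KO and 74 and 89 in WT. Mael was therefore low in both knockouts against WT and lowest in Dppa2KO, with log2 fold changes of -4.10 for Dppa2KO (adjusted p = 9.46e-06) and -1.44 for DuxKO (adjusted p = 0.00226).

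Other meiotic members had fewer counts. Sycp1, the transverse filament of the synaptonemal complex, held 46 and 57 counts in DuxKO and 0 and 4 in Dppa2KO, and its log2 fold change of -4.85 was -8.66 without Dppa2KO replicate 2. Tex11, an X-linked meiotic gene, held 49 and 57 counts in DuxKO and 0 and 6 in Dppa2KO, a log2 fold change of -4.34 that was -8.70 without the same library. Dazl, an RNA-binding protein that marks germ cells, held 24 and 14 counts in DuxKO and 2 and 0 in Dppa2KO. DuxKO was 22.9-fold above Dppa2KO for Dazl, with an exact 95% counting interval of 5.91 to 196, and the fitted log2 fold change of -4.33 (SE 0.79, adjusted p = 0.00166) was -7.24 without Dppa2KO replicate 1. Rpl10l, a testis copy of a ribosomal protein gene, held 173 and 178 counts in DuxKO, 18 and 15 in Dppa2KO and 311 and 329 in WT, and reads of the near-identical Rpl10 could have been split with it. Among the piRNA genes, Tdrd12 (0.37, adjusted p = 0.143), Rnf17 (-0.53, adjusted p = 0.0716) and Pld6 (0.07, adjusted p = 0.945) were not called, and Tdrd9 was higher. The 5 higher members were Prdm14, Smc1b, Tdrd9, Dnd1 and Tex19.1, with log2 fold changes from 0.30 to 5.35. Kit, a receptor tyrosine kinase, and Stag3, a meiotic cohesin subunit, were not called, with log2 fold changes of 0.06 (adjusted p = 0.724) and 0.20 (adjusted p = 0.235).

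The promoters of the germline genes tested, grouped by their calls, were read from RefSeq (GRCm38.p6). The window was the 250 bases before each annotated start. Of the 19 lower genes 15 had an entry, with 20 starts among them. Their windows held 3 to 31 CpG dinucleotides with a median of 17.5. The windows of germline genes that were not called held 0 to 40 with a median of 14, those of the higher ones had a median of 15, and the median over all 32851 promoter windows of the table was 6. The E-box CACGTG, which reads the same on both strands, was present for 10 of the 15 lower genes (66.7%) and 1 of 3 higher ones (33.3%). It was present for 6 of 26 germline genes that were not called (23.1%) and in 6.02% of all windows. Of the 10 lower genes with the largest change over all genes, 1 had it, Ddx4. The sequence GCGGGAA, searched on both strands, was present for 3 of the 15, 1 of the 3 and 6 of the 26, and in 3.82% of all windows. These shares are descriptions of the letters, for motifs chosen after values were seen, and genes with several starts had more windows in which to match. Of the lower genes with the E-box, 4 are shown, beside Dazl, which lacked both sequences, and Lncenc1, one of the largest higher genes, with 3 CpG dinucleotides. Capitals mark CACGTG and GCGGGAA.
Ddx4 promoter, chr13:112652311-112652560, minus strand: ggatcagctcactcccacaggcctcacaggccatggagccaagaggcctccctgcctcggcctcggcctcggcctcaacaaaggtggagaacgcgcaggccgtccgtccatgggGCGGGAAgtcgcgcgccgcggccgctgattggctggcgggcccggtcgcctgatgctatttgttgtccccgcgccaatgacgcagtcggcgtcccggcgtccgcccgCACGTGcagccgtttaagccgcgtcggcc
Mov10l1 promoter, chr15:88982744-88982993, plus strand: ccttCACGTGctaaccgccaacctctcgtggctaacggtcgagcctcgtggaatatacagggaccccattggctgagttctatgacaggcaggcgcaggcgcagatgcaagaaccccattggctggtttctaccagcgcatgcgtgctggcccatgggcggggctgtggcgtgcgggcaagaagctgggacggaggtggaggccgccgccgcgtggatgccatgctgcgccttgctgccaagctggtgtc
Sycp1 promoter, chr3:102936101-102936350, minus strand: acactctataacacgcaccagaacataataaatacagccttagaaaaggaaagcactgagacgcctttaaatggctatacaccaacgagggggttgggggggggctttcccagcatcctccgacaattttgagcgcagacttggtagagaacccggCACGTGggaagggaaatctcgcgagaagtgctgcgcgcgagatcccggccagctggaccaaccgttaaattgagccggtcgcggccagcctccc
Mael promoter, chr1:166238745-166238994, minus strand: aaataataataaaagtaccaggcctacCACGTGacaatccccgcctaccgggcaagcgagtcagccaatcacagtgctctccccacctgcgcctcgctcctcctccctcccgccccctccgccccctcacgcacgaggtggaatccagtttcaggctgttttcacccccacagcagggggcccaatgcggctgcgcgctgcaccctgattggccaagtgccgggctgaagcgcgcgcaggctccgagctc
Dazl promoter, chr17:50293621-50293870, minus strand: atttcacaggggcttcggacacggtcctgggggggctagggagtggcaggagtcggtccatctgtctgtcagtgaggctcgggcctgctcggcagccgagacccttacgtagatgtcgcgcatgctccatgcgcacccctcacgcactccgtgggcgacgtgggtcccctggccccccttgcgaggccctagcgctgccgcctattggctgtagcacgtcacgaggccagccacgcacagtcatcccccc
Lncenc1 promoter, chr13:97434720-97434969, plus strand: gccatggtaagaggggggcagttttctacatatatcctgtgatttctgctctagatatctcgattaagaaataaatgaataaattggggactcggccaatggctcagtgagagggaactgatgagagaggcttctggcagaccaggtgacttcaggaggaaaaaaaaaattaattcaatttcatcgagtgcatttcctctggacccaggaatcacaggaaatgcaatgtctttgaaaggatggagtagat
The Ddx4 window held 31 CpG dinucleotides and both sequences, and those of Mov10l1, Sycp1, Mael and Dazl held 19, 17, 18 and 20.

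The imprinted Dlk1-Dio3 region of chromosome 12 was lower in Dppa2KO over a run of 13 genes between chr12:109452485-109749458 (GRCm38). A run here and below joined called genes changed at least 4-fold in the same direction, with starts within 200 kb of each other. Genes between them that were not called or changed less were passed over, so a run is not an unbroken stretch. Imprinted genes are transcribed from 1 parental copy. In this region the maternal copy gives the noncoding RNAs Meg3, Rian and Mirg and their small RNAs, and the paternal copy gives Dlk1, Rtl1 and Dio3. Of 7 list members tested, 5 were lower, 1 was higher and 1, Begain, was not called (log2 fold change -0.41, adjusted p = 0.496). Of all genes 8.95% were lower and 9.38% higher. The median of the list was -4.23, which is Rtl1's own value.

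Meg3 held 315 and 337 counts in DuxKO, 534 and 614 in WT and 0 in both Dppa2KO libraries. It was at least 131-fold lower in Dppa2KO than in DuxKO against a floor of 3 counts per library (edgeR adjusted p = 1.28e-08). Rian, a host of small nucleolar RNAs, held 1226 and 1262 counts in DuxKO, 1226 and 1338 in WT and 6 and 2 in Dppa2KO (log2 fold change -8.50, SE 0.21, edgeR adjusted p = 6.31e-11). That was the lowest adjusted p among the genes named, and the DuxKO level of 41.8 ± 0.18 CPM lay within the spread of WT at 42.4 ± 1.8 CPM (SD, n = 2 each). Mirg, a host of microRNAs, held 332 and 305 counts in DuxKO, 548 and 582 in WT and 2 and 0 in Dppa2KO. Its ratio of DuxKO to Dppa2KO was 383, with an exact 95% counting interval of 106 to 3172.

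The paternally transcribed genes differed among themselves. Rtl1, a retrotransposon-derived gene that lies antisense to maternal transcripts, held 132 and 247 counts in DuxKO and 9 and 15 in Dppa2KO (log2 fold change -4.23, SE 0.36, edgeR adjusted p = 5.63e-06). Dlk1, a Notch-like membrane protein, held 96 and 110 counts in DuxKO, 22 and 10 in Dppa2KO and 40 and 51 in WT (log2 fold change -2.94, SE 0.39, edgeR adjusted p = 0.00014). Dio3, an enzyme that inactivates thyroid hormone, was the 1 higher member, with 37 and 32 counts in Dppa2KO, 2 and 10 in DuxKO and 14 and 30 in WT (log2 fold change 2.23, SE 0.56, edgeR adjusted p = 0.0133). The Dio3 call was lost without DuxKO replicate 1 (1.52, adjusted p = 0.12) and without Dppa2KO replicate 1 (2.16, adjusted p = 0.0529), and the log2 fold change was 3.75 without DuxKO replicate 2. In Dppa2KO the maternal RNAs Meg3, Mirg and Rian held 0 and 0, 2 and 0, and 6 and 2 counts. Rtl1 held 9 and 15 and Dlk1 22 and 10. Because whether reads were counted by strand is not given in the sources used here, Rtl1 reads cannot be told apart from those of the transcripts opposite to it.

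The run also held 7 microRNA hairpins, whose intervals lie within or between these long RNAs. They held 2 to 21 counts in the DuxKO libraries, 4 to 31 in WT and 0 in both Dppa2KO libraries. These are reads of long RNA over the hairpin intervals, so they do not measure the mature microRNAs. The 3p arms that RefSeq lists for 6 of the 7 are shown to name the small RNAs of this run, with the seed (bases 2 to 8) in capitals.
mmu-miR-3070-2-3p: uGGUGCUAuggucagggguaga
mmu-miR-382-3p: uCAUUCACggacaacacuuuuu
mmu-miR-668-3p: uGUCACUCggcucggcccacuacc
mmu-miR-485-3p: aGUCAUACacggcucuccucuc
mmu-miR-377-3p: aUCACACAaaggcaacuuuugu
mmu-miR-410-3p: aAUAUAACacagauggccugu
The 6 seeds all differ, so the arms form no family by seed.

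**Figure D2:**
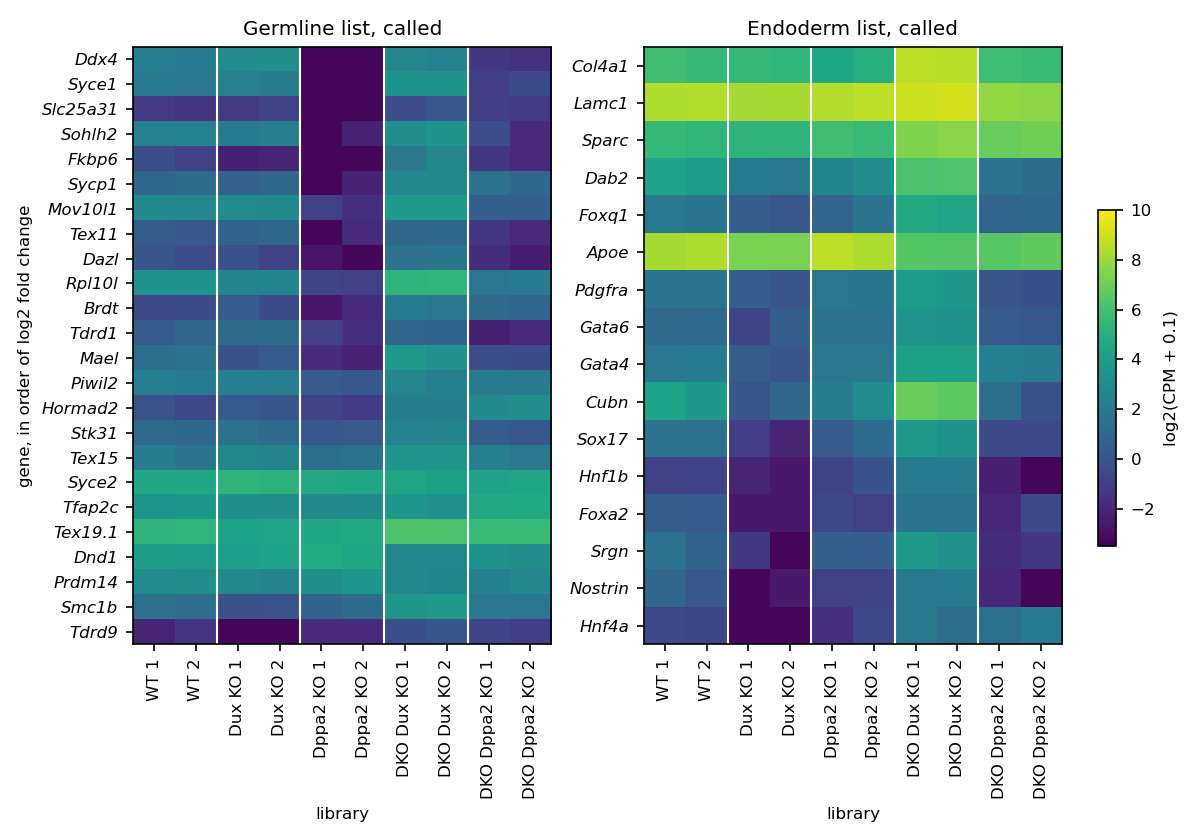
Level in every library, as log2(CPM + 0.1), of the members of the germline list (left) and the endoderm list (right) that were called between Dppa2KO and DuxKO. Rows are genes in order of log2 fold change, columns are single libraries, and DKO marks cells that also lack CtBP. The Dppa2 KO columns are dark for Ddx4 and Syce1, which have 0 counts there, and the Dux KO columns are dark for Hnf4a, which has 0 counts there.

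A second run of lower neighbours lay at chr6:48593883-48633688 (GRCm38) and held 4 genes. Repin1, a zinc finger protein that binds replication origins, held 411 and 381 counts in DuxKO, 434 and 501 in WT and 14 and 15 in Dppa2KO (log2 fold change -5.02, SE 0.26, edgeR adjusted p = 4.17e-08). Its neighbour Zfp775, a further zinc finger gene, held 191 and 196 counts in DuxKO and 2 and 4 in Dppa2KO (log2 fold change -6.21, SE 0.32). Gm38804 held 20 and 25 counts in DuxKO and 0 in both Dppa2KO libraries, and AI854703 held 21 and 12 against 0 and 2. The AI854703 call was lost without DuxKO replicate 1 (adjusted p = 0.0542) or Dppa2KO replicate 1 (adjusted p = 0.0608), and its log2 fold change of -4.12 was -7.03 without Dppa2KO replicate 2. Elsewhere, Zfp629 on chromosome 7 held 104 and 103 counts in DuxKO, 89 and 106 in WT and 0 in both Dppa2KO libraries, at least 41.5-fold lower. Mbd1, a protein that binds methylated CpG, held 263 and 267 counts in DuxKO, 255 and 219 in WT and 45 and 58 in Dppa2KO (log2 fold change -2.63, SE 0.18, edgeR adjusted p = 5.23e-07). For Repin1, Zfp775, Zfp629 and Mbd1 the DuxKO and WT libraries stood together.

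A run of 3 lower genes at chr3:107741048-107898685 (GRCm38) stood differently against WT. Csf1, a growth factor of macrophages, held 117 and 45 counts in DuxKO, 12 and 10 in Dppa2KO and 6 and 11 in WT, so that WT stood with Dppa2KO. Its log2 fold change of -3.14 was -2.27 without DuxKO replicate 1, where the call was lost (adjusted p = 0.0517). Gstm5, a glutathione transferase, held 112 and 103 counts in DuxKO, 4 and 6 in Dppa2KO and 50 and 63 in WT (log2 fold change -4.65), with WT between the knockouts.

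On the higher side the named genes with the lowest p-values stood low in DuxKO. Lgals3, the carbohydrate-binding protein galectin-3, held 81 and 108 counts in DuxKO, 1415 and 1263 in Dppa2KO and 768 and 865 in WT (log2 fold change 3.56, SE 0.14, edgeR adjusted p = 7e-09). Gpa33, a cell surface antigen of epithelia, held 42 and 38 counts in DuxKO, 1106 and 842 in Dppa2KO and 328 and 396 in WT (log2 fold change 4.33, SE 0.19, edgeR adjusted p = 1.28e-08). Lncenc1, a long noncoding RNA of embryonic stem cells, held 60 and 83 counts in DuxKO, 1416 and 1113 in Dppa2KO and 897 and 885 in WT (log2 fold change 3.87, SE 0.21). Against WT, Gpa33 was 1.18 higher on the log2 scale in Dppa2KO (adjusted p = 0.00025) and Lncenc1 was not called (0.26, adjusted p = 0.324).

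Ccnd2, the cell cycle protein cyclin D2, held 501 and 522 counts in DuxKO, 3170 and 3539 in Dppa2KO and 2071 and 2245 in WT (log2 fold change 2.45, SE 0.11, edgeR adjusted p = 1.28e-08). Trap1a, an X-linked tumour rejection antigen, and AU018091 followed with log2 fold changes of 2.38 and 2.30. Fbxo40, an F-box protein known from muscle, held 103 and 93 counts in Dppa2KO, 51 and 70 in WT and 0 in both DuxKO libraries, at least 27.1-fold higher. Tfpi, an inhibitor of blood coagulation, held 7 and 0 counts in DuxKO, 166 and 126 in Dppa2KO and 49 and 30 in WT, and its log2 fold change of 5.06 was 9.92 without DuxKO replicate 1. Sh3rf2 held 2 and 2 counts in DuxKO, 241 and 158 in Dppa2KO and 13 and 10 in WT (log2 fold change 6.28, SE 0.59), so that Dppa2KO stood far above WT as well.

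Of the 10 largest higher genes, 2 rested on uneven libraries. Wbscr25 held 398 and 2 counts in the Dppa2KO libraries and 0 and 1 in DuxKO, and its log2 fold change of 8.04 (adjusted p = 0.0145) was 1.54 without Dppa2KO replicate 1 (adjusted p = 0.754). The Wbscr25 call was also lost without either DuxKO library (adjusted p = 0.11 and 0.0924). Cplx2, a complexin of synaptic vesicle release, held 552 and 2788 counts in Dppa2KO, 33 and 15 in DuxKO and 14 and 14 in WT (log2 fold change 5.86, SE 0.77, edgeR adjusted p = 0.00013). Its level varied among unedited cells too: the 4 WT libraries of the other table ranged from 0.204 to 31.3 CPM.

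The other table gives the Dux side from libraries that the comparison does not use. There 2 DuxKO libraries were tested against 4 WT libraries. The fit held all libraries of that table, among them those of Pramel7 overexpression and knockout cells. It called 3361 of 20161 genes (16.7%), 7.76% higher and 8.91% lower in DuxKO. Lgals3 was lower in those DuxKO libraries than in WT by a log2 fold change of -2.88 (SE 0.24, edgeR adjusted p = 6.99e-06), Gpa33 by -3.34 (SE 0.21) and Lncenc1 by -5.41 (SE 0.37). Of 1952 genes higher in Dppa2KO that were tested in both tables, 639 (32.7%) were lower in those DuxKO libraries than in WT, and 96 (4.92%) were higher. Over all 19516 genes tested in both, 9.03% were lower and 7.95% were higher there, and the 639 make up 36.3% of the lower ones. In the other direction, 521 of 1876 genes lower in Dppa2KO (27.8%) were higher in those DuxKO libraries, 33.6% of the higher ones there. Chromosome 8, described below, held 441 of all 1896 lower calls of the comparison. Of its 934 genes tested in the other table, 232 (24.8%) were higher in those DuxKO libraries than in WT. The part of chromosome 8 in this overlap was not tested. Large lower genes of the comparison were not called there: Rian 0.01 (adjusted p = 0.967), Ddx4 -0.24 (adjusted p = 0.452), Meg3 -0.42 (adjusted p = 0.283) and Syce1 -0.71 (adjusted p = 0.0657).

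Genes of DNA methylation moved in both directions, with 5 of 22 higher, 4 lower and a list median of 0.19. Over all genes 9.38% were higher and 8.95% lower. Dnmt3l, the cofactor of the de novo DNA methyltransferases, held 647 and 652 counts in DuxKO, 2369 and 2213 in Dppa2KO and 1981 and 1891 in WT (log2 fold change 1.55, SE 0.09, edgeR adjusted p = 8.56e-08). In CPM it stood at 64 ± 1.7 in Dppa2KO and 64.1 ± 3.4 in WT, against 21.8 ± 0.23 in DuxKO (SD, n = 2 each). The DuxKO libraries of the other table were also below WT, by -2.84 (SE 0.16, edgeR adjusted p = 7.52e-07). Zfp57, a zinc finger protein that protects imprints, was 0.82 higher on the log2 scale (adjusted p = 4.67e-05), and Uhrf2 was lower by -1.15 (adjusted p = 3.02e-05). The abundant maintenance factors Dnmt1 (0.04, adjusted p = 0.856) and Uhrf1 (0.15, adjusted p = 0.241) were not called.

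Of 21 naive pluripotency genes, 9 were higher in Dppa2KO and 3 were lower, with a list median of 0.25, where 9.38% of all genes were higher and 8.95% lower. Against the shared WT libraries, 4 were higher and 6 lower in Dppa2KO, and 2 were higher and 11 lower in DuxKO. In these tests 7.67% of all genes were higher and 8.69% lower in Dppa2KO, and 7.94% and 9.56% in DuxKO. In the other table, the DuxKO libraries had 7 members higher and 2 lower than in WT, with a median of 0.24. There 7.76% of all genes were higher and 8.91% lower. Nanog, a core transcription factor, held 7129 and 6448 counts in Dppa2KO, 3414 and 3385 in DuxKO and 4587 and 4706 in WT (log2 fold change 0.73, SE 0.08, edgeR adjusted p = 3.64e-05). Dppa2KO was the highest and DuxKO the lowest of the 3 groups, with no overlap. Nr0b1 (0.86), Fgf4 (0.73) and Klf2 (0.64), all genes of the naive state, were higher by these log2 fold changes, while Zfp42 (-0.03, adjusted p = 0.91) and Klf5 (0.22, adjusted p = 0.107) were not called. Of the 21 list members, 2 lie on chromosome 8, which stood apart as a whole and is described below.

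Core and formative genes split evenly, 7 of 21 higher and 7 lower, with a list median of 0.12, where 9.38% of all genes were higher and 8.95% lower. Pou5f1, which encodes Oct4, held 40792 and 32773 counts in Dppa2KO and 19319 and 18626 in DuxKO (log2 fold change 0.69, SE 0.10, edgeR adjusted p = 0.00044). Foxd3 was 0.99 higher on the log2 scale. Otx2, a factor of the exit from the naive state, held 199 and 185 counts in Dppa2KO, 351 and 424 in DuxKO and 325 and 340 in WT (log2 fold change -1.28, SE 0.14, edgeR adjusted p = 2.42e-05). Mycn was lower by -0.71, and Sall4 (0.12, adjusted p = 0.494) and Lin28a (-0.20, adjusted p = 0.178) were not called.

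Within the Dppa and Pramel families 2 of 12 tested members were higher and 3 were lower, and 4 held at most 3 counts in each of the 4 libraries. Of all genes 9.38% were higher and 8.95% lower. Dppa5a, an RNA-binding protein of pluripotent cells, held 31334 and 30204 counts in Dppa2KO and 7481 and 9538 in DuxKO (log2 fold change 1.59, SE 0.13, edgeR adjusted p = 2.06e-06). Dppa3, a maternal factor also called Stella that hinders DNA methylation, held 10 and 18 counts in Dppa2KO, 94 and 81 in DuxKO and 42 and 16 in WT (log2 fold change -2.90, SE 0.45, edgeR adjusted p = 0.00047). Dppa4, the binding partner of Dppa2, held 2518 and 2119 counts in Dppa2KO and 1722 and 1521 in DuxKO and was not called (0.25, adjusted p = 0.154). Pramel7, which promotes loss of DNA methylation, was at 0 in all 4 libraries and at 0 and 2 in WT. Pramef8 stood at similar levels in both knockouts (0.06, adjusted p = 0.922).

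Dux-driven 2-cell genes gave almost no signal to compare. Of 31 tested, 26 held at most 3 counts in each of the 4 libraries, having passed the filter on low counts through other groups of the table. The list median was 0.00. Zscan4c, a marker of the 2-cell-like state, was at 0 in all 4 libraries and at 12 and 3 in WT. The single call was Ddit4l, an inhibitor of mTOR signalling, with 66 and 61 counts in Dppa2KO and 98 and 84 in DuxKO (log2 fold change -0.79, adjusted p = 0.0437), and that call was lost without any 1 of the 4 libraries (adjusted p from 0.0794 to 0.224).

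Endoderm genes were higher in Dppa2KO than in DuxKO more often than lower. Of 27 primitive and visceral endoderm genes tested, 15 were higher, 1 was lower and 11 were not called. Over all genes 9.38% were higher and 8.95% lower. The list median was 0.87, the highest of the 23 lists. Against WT, 7 were lower and 20 were not called in Dppa2KO, and 18 were lower in DuxKO, over shared WT libraries. In these tests 8.69% of all genes were lower in Dppa2KO and 9.56% in DuxKO. The DuxKO libraries of the other table differed from this: of 26 members tested there, 3 were lower than in WT, 2 were higher and 21 were not called. Among all genes 8.91% were lower and 7.76% higher there. The list median was -0.37 there, beside -1.48 for DuxKO against WT in the table of the comparison. The 1 member lower in Dppa2KO than in DuxKO, Col4a1, lies on chromosome 8. Sox17, a transcription factor of endoderm, held 12 and 4 counts in DuxKO, 44 and 78 in Dppa2KO and 83 and 84 in WT (log2 fold change 2.65, SE 0.46, edgeR adjusted p = 0.00116). Gata4, which specifies primitive endoderm, held 38 and 30 counts in DuxKO, 126 and 128 in Dppa2KO and 108 and 130 in WT (log2 fold change 1.63, SE 0.19, edgeR adjusted p = 5.09e-05). Hnf4a, a nuclear receptor of visceral endoderm, held 0 counts in both DuxKO libraries, 8 and 20 in Dppa2KO and 18 and 16 in WT, at least 3.9-fold higher in Dppa2KO.

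Other endoderm members varied. Apoe, which carries lipid out of the yolk sac, held 4574 and 4682 counts in DuxKO, 14800 and 11981 in Dppa2KO and 9110 and 10473 in WT (log2 fold change 1.26, SE 0.11, edgeR adjusted p = 3.52e-06). Lrp2 (0.05, adjusted p = 0.853) and Lama1 (0.10, adjusted p = 0.621) were not called. Gata6 held 15 and 43 counts in DuxKO and 106 and 97 in Dppa2KO, and its call was lost without DuxKO replicate 1 (log2 fold change 0.99, adjusted p = 0.0542), while its log2 fold change of 1.54 was 2.47 without DuxKO replicate 2. In these bulk libraries fewer cells of a type and less RNA per cell cannot be told apart.

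Trophoblast genes leaned the other way, with 9 of 20 lower, 3 higher and a median of -0.32. Over all genes 8.95% were lower and 9.38% higher. Against the shared WT libraries, 4 were lower and 0 higher in Dppa2KO, and 6 were higher and 4 lower in DuxKO (median 0.16). In these tests 7.67% of all genes were higher and 8.69% lower in Dppa2KO, and 7.94% and 9.56% in DuxKO. The DuxKO libraries of the other table differed from this, with 1 of 19 higher than in WT and 8 lower (median -0.74). There 7.76% of all genes were higher and 8.91% lower. Krt8 held 514 and 375 counts in Dppa2KO, 914 and 838 in DuxKO and 591 and 490 in WT (log2 fold change -1.25, SE 0.13, edgeR adjusted p = 2.69e-05), and its keratin partner Krt18 followed at -0.82. Bmp4, a signal of the TGF-beta family, was 1.96 higher on the log2 scale (SE 0.13, adjusted p = 3.77e-07). Primitive streak and mesoderm genes split 4 higher and 4 lower of 23 (median -0.25), with the signal Nodal at 0.93 and its inhibitor Lefty2 at -0.66. Of 19 neuroectoderm genes 6 were lower and 2 higher (median -0.18), and 3 of the lower ones, among them Irx3 (-2.59) and Sox1 (-0.71), lie on chromosome 8. Hox genes split 3 and 3 of 29 (median 0.14), with Hoxd11 at 3.36.

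**Figure D3:**
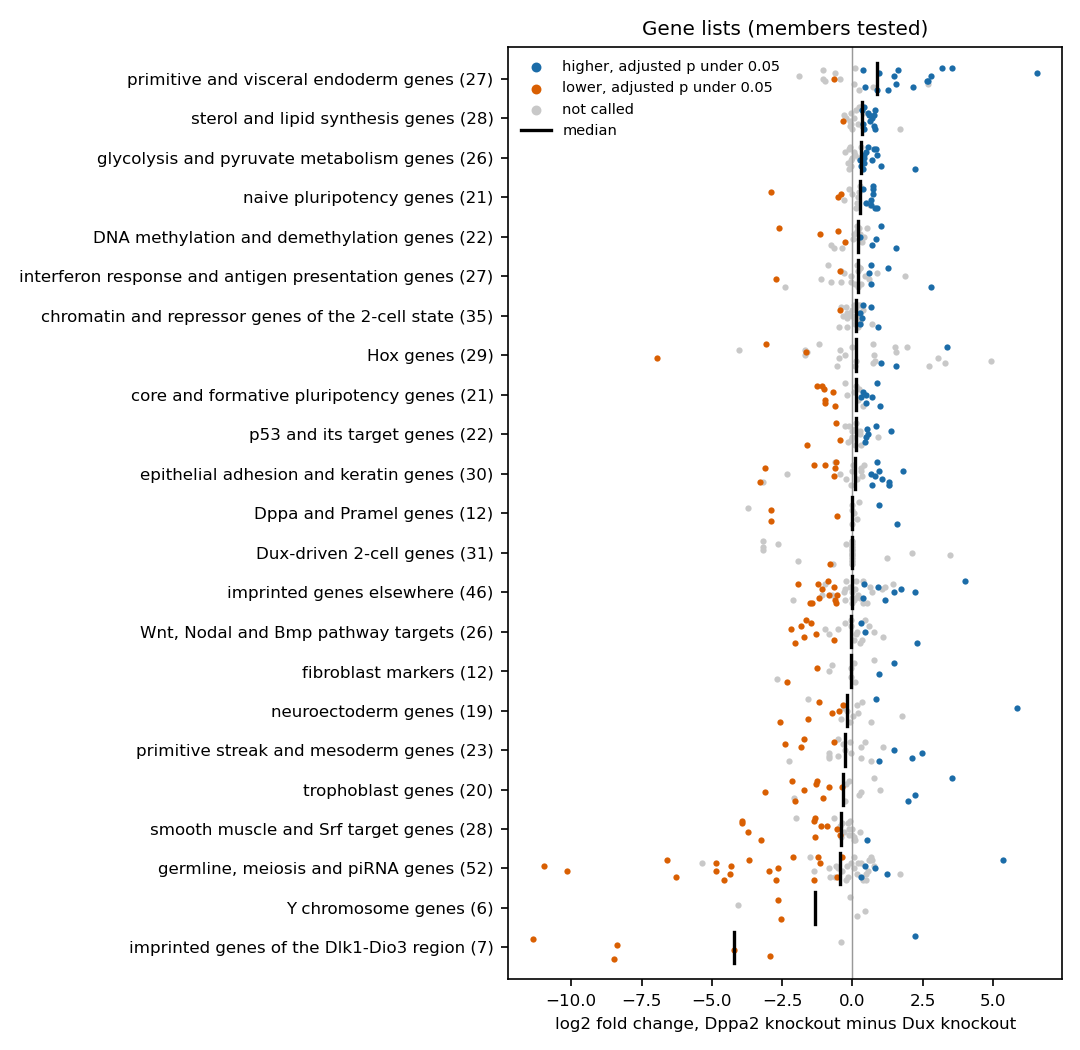
Log2 fold change, Dppa2KO minus DuxKO, of every tested member of the 23 gene lists, with the number of tested members in brackets. Points are genes, coloured where the edgeR adjusted p is under 0.05, and black bars are list medians. The Dlk1-Dio3 list has the lowest median at -4.23 and the endoderm list the highest at 0.87.

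Smooth muscle genes and other targets of Srf, a factor that couples actin to transcription, were lower in Dppa2KO for 11 of 28 members and higher for 1. The list median was -0.41, and over all genes 8.95% were lower and 9.38% higher. Tagln, an actin-binding protein of smooth muscle, held 32 and 38 counts in Dppa2KO, 479 and 291 in DuxKO and 49 and 34 in WT (log2 fold change -3.72, SE 0.35, edgeR adjusted p = 9.03e-06). Thbs1, the matrix protein thrombospondin, held 49 and 51 counts in Dppa2KO, 413 and 372 in DuxKO and 60 and 60 in WT (log2 fold change -3.24, SE 0.19, edgeR adjusted p = 1.14e-07). The tropomyosins Tpm4 (-1.38) and Tpm1 (-1.11) followed, and Tpm4 lies on chromosome 8. None of these 4 genes was called between Dppa2KO and WT, and DuxKO was higher than WT for each. The cytoplasmic actins Actb (-0.11, adjusted p = 0.462) and Actg1 (-0.10, adjusted p = 0.51) were not called.

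DuxKO was also the highest of the 3 groups for the Id genes, targets of Bmp signalling. Id1 held 757 and 883 counts in Dppa2KO, 1934 and 1896 in DuxKO and 494 and 613 in WT (log2 fold change -1.49, SE 0.12, edgeR adjusted p = 1.9e-06). Id2 (-2.17) and Id3 (-1.29) were lower as well. With them, 8 of 26 targets of the Wnt, Nodal and Bmp pathways were lower and 3 were higher, with a median of -0.05. Of all genes 8.95% were lower and 9.38% higher. Notum, a secreted inhibitor induced by Wnt, held 1682 and 1663 counts in Dppa2KO and 232 and 332 in DuxKO (log2 fold change 2.30, SE 0.14, edgeR adjusted p = 1.68e-07). In the DuxKO libraries of the other table Id1 (0.08, adjusted p = 0.711), Id3 (0.18, adjusted p = 0.384), Thbs1 (0.63, adjusted p = 0.0814) and Tagln (0.69, adjusted p = 0.254) were not called against WT.

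Of 26 genes of glycolysis and pyruvate metabolism, 14 were higher in Dppa2KO and the other 12 were not called, with a median of 0.30. Of all genes 9.38% were higher. Against WT, 15 were higher in Dppa2KO, where 7.67% of all genes were higher. Pfkl, a subunit of the pace-setting enzyme phosphofructokinase, held 8900 and 8486 counts in Dppa2KO, 4146 and 4286 in DuxKO and 5192 and 5227 in WT (log2 fold change 0.78, SE 0.08, edgeR adjusted p = 1.15e-05). Aldoc, an aldolase, had the largest log2 fold change of the list at 2.23 (SE 0.17), followed by Ldhb at 1.03 and Tpi1 at 0.87. Eno1, an enolase, was not called (0.00, adjusted p = 0.992). Of 28 sterol and lipid synthesis genes, 12 were higher, 1 was lower and 15 were not called, with a median of 0.35. The shares over all genes were 9.38% higher and 8.95% lower. Against the shared WT libraries, 4 members were higher and 5 lower in Dppa2KO (median 0.06). In DuxKO 2 were higher and 14 lower (median -0.29). In these tests 7.67% of all genes were higher and 8.69% lower in Dppa2KO, and 7.94% and 9.56% in DuxKO. The DuxKO libraries of the other table differed from this, with 2 of 28 higher than in WT and 2 lower (median -0.16). There 7.76% of all genes were higher and 8.91% lower. Between Dppa2KO and DuxKO, the mevalonate pathway enzymes Hmgcs1 and Fdps were higher in Dppa2KO by 0.81 (SE 0.09) and 0.77 (SE 0.10) on the log2 scale. The fatty acid enzyme genes Fasn (0.13, adjusted p = 0.411) and Scd2 (-0.10, adjusted p = 0.515) were not called.

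Imprinted genes outside the Dlk1-Dio3 region were higher for 8 of 46 members and lower for 12, with a median of -0.01. The shares over all genes were 9.38% and 8.95%. Cdkn1c, a cell cycle inhibitor expressed from the maternal copy, held 438 and 448 counts in Dppa2KO, 113 and 112 in DuxKO and 865 and 902 in WT (log2 fold change 1.71, SE 0.14, edgeR adjusted p = 1.75e-06). Its neighbour Phlda2 held 60 and 73, 20 and 20, and 152 and 138 counts in the same order. Both genes were lower than WT in each knockout and lowest in DuxKO. Igf2, a paternally expressed growth factor, held 178 and 157 counts in Dppa2KO, 543 and 535 in DuxKO and 143 and 130 in WT (log2 fold change -1.95, SE 0.15, edgeR adjusted p = 1.14e-06). Grb10, an adaptor that restrains insulin signalling, was lower by -1.42 (SE 0.08).

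Runs of neighbours on the higher side were of other kinds. The Oas genes of chromosome 5, which sense double-stranded RNA in the interferon response, formed a run of 4 genes with log2 fold changes from 2.37 to 3.25. Oas1a held 107 and 112 counts in Dppa2KO, 20 and 6 in DuxKO and 54 and 46 in WT (log2 fold change 2.79, SE 0.39, edgeR adjusted p = 0.00023). The interferon list as a whole had 5 of 27 members higher and 2 lower, with a median of 0.19. Of all genes 9.38% were higher and 8.95% lower. Runs made largely of predicted genes held 6 genes on chromosome 13, 4 on chromosome 2 and 3 on chromosome 17. That their members were lower in DuxKO is set by the rule for runs. A further run of 3 on chromosome 17 held the histocompatibility gene H2-M5, with 820 and 719 counts in Dppa2KO, 139 and 169 in DuxKO and 454 and 517 in WT. Gm14418 of the chromosome 2 run held 136 and 134 counts in Dppa2KO, 7 and 6 in DuxKO and 149 and 114 in WT, and Gm10324 of the chromosome 13 run held 101 and 100, 3 and 12, and 149 and 105. Members of such families are close copies of each other, so their counts are uncertain where reads could be split between them.

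In the remaining lists calls went in both directions, where 9.38% of all genes were higher and 8.95% lower. Of 22 genes of p53 and its targets, 6 were higher and 3 were lower (median 0.11), with the apoptosis genes Pmaip1 at -1.62 and Bax at 0.48 and Trp53 itself not called (-0.17, adjusted p = 0.375). Epithelial adhesion and keratin genes were higher for 9 of 30 and lower for 7 (median 0.09), with Epcam at 0.80, Cldn4 at 1.31 and N-cadherin (Cdh2) at -1.35, while E-cadherin (Cdh1) was not called (0.00, adjusted p = 0.996). Chromatin and repressor genes of the 2-cell state were higher for 6 of 35 and lower for 1 (median 0.14), led by Rcor2 at 0.90. Fibroblast markers split 2 and 2 of 12 (median -0.06). Of 6 genes of the Y chromosome, Uba1y and Usp9y were lower, while Ddx3y (0.17, adjusted p = 0.399) and Eif2s3y (-0.10, adjusted p = 0.741) were not called. The Usp9y call was lost without DuxKO replicate 1 (adjusted p = 0.143), DuxKO replicate 2 (adjusted p = 0.0912) or Dppa2KO replicate 2 (adjusted p = 0.142), and its log2 fold change of -2.66 was -7.98 without Dppa2KO replicate 1. The median of the Y chromosome list was -1.33.

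Among the autosomes and the X chromosome, chromosome 8 stood apart. Over 603 of its genes with a mean of at least 2 log2 CPM, the median log2 fold change differed from that of all such genes by -0.52. The other 19 chromosomes, X included, ranged from -0.06 to 0.06. Of 968 tested genes on chromosome 8, 441 were lower in Dppa2KO (45.6%) and 21 were higher (2.17%), so the chromosome holds 441 of the 1896 lower calls. Its median was 0.32 above the rest for DuxKO against WT and -0.18 for Dppa2KO against WT, and 0.32 for DuxKO against WT in the other table. In the contrast without CtBP it was 0.06, within the -0.15 to 0.07 of the other chromosomes, and it was -0.57 in the test of the difference between the contrasts. The part of this shift in the calls of single chromosome 8 genes was not tested. Without chromosome 8 and the mitochondrial genes the calls were 1899 higher and 1404 lower. Of the 10 largest changes in each direction none lies on chromosome 8, while a run of 4 predicted genes there was lower by -4.11 to -3.37, with 6820431F20Rik at 72 and 69 counts in Dppa2KO against 563 and 653 in DuxKO and 708 and 714 in WT.

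**Figure D4:**
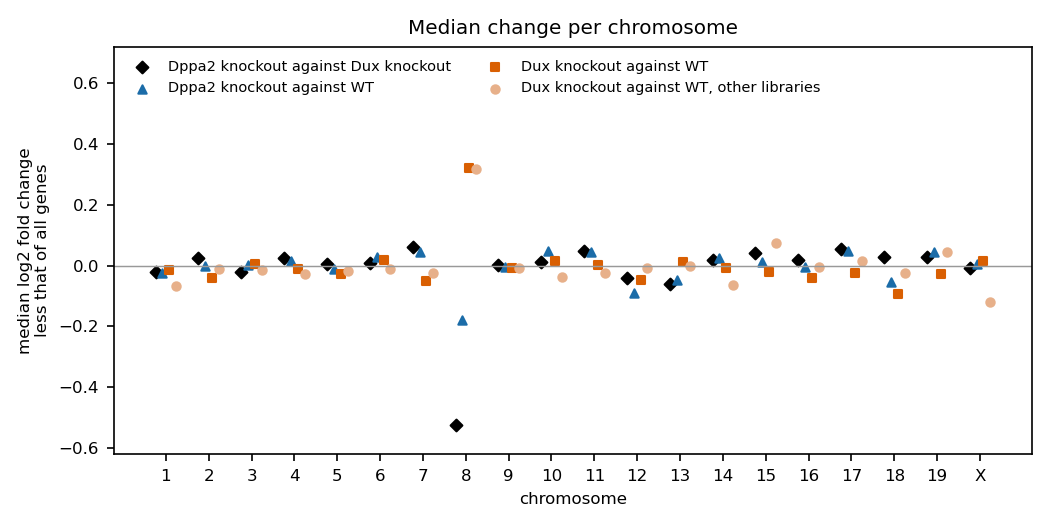
Median log2 fold change of each chromosome less the median of all genes, over genes with a mean of at least 2 log2 CPM. Symbols mark the 4 comparisons. Chromosome 8 lies at -0.52 for Dppa2KO against DuxKO and at 0.32 for DuxKO against WT in both tables, while the other chromosomes lie between -0.12 and 0.08.

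The same contrast could be made in cells that also lack CtBP, with no library in common. One of its arms is labelled inconsistently: the titles name Dppa2 and Dux, while the descriptions name the Ctbp double knockout and Dppa2, and the descriptions were used. There 2222 genes were higher (10.5%) and 2650 were lower (12.5%). Of the 1896 genes lower in Dppa2KO, 464 (24.5%) were lower in this contrast too, which is 17.5% of its lower genes, and 302 were higher. Of the 1988 higher genes, 316 (15.9%) were also higher and 455 (22.9%) were lower.

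Ddx4, Meg3, Rian and Syce1 were lower without CtBP as well. The test of the difference between the contrasts called each of the 4 as more negative with CtBP, although their fitted values with CtBP depend on libraries at or near 0 counts. Ddx4 held 6 and 6 counts in the Dppa2 knockout without CtBP and 140 and 155 in the Dux knockout without CtBP (log2 fold change -4.34, edgeR adjusted p = 1.78e-06). Meg3 held 6 and 3 against 204 and 282 (-5.45), Rian 11 and 16 against 503 and 633 (-5.12) and Syce1 8 and 15 against 240 and 309 (-4.30). Of 52 germline genes, 22 were lower and 5 higher in this contrast, and 6 of the 7 Dlk1-Dio3 genes were lower. Of all genes 12.5% were lower and 10.5% higher there. Endoderm genes went the other way: 21 of 27 were lower and 6 were not called, with a median of -3.05 against 0.87 with CtBP. In the test of the difference between the contrasts, 21 of the 27 were called and all 21 were more positive with CtBP, where 11.4% of all genes were more positive and 9.44% more negative (20.8% in all). Sox17 held 12 and 14 counts in the Dppa2 knockout without CtBP and 322 and 326 in the Dux knockout without CtBP (log2 fold change -4.38, edgeR adjusted p = 9.28e-06). Lgals3 (-0.65) and Gpa33 (-0.64) were likewise lower there, and Lncenc1 (0.48, adjusted p = 0.0531) was not called.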

How the data were processed

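Total RNA of E14tg2a cells was read with a stranded kit, per the labels' protocols, and the deposited raw counts per gene symbol (unit: counts) were used. The submitters' processing notes name Trim Galore, HISAT2, featureCounts and mm10, with no role or version. Bisulfite libraries of the series were not analysed here. Groups came from the labels. Of 55276 gene symbols, 21193 passed filterByExpr over the 12 libraries of the genotype table. Structural RNA genes held 9.29 to 13.4% of counts, TMM factors were 0.977 to 1.051, and 26 symbols turned into dates stayed in, with at most 0.089% of counts.

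All 12 libraries entered 1 edgeR 4.0.16 quasi-likelihood fit (limma 3.58.1, R 4.3.3) with group as the only term, and Dppa2KO was contrasted with DuxKO. P-values were adjusted by Benjamini-Hochberg over all genes tested, calls needed an adjusted p under 0.05, and fitted log2 fold changes used a prior count of 0.125. Standard errors are the fold change over the square root of F. The other table was fitted alone in the same way over all its libraries, with 20161 genes tested. These include the Pramel7 overexpression and knockout libraries. Chi-square per gene between the 2 libraries of a group was 18.1 to 40.0 in the 3 groups, so no pair was 1 library deposited again. Counting intervals cover counting error only. Chromosomes and promoters came from RefSeq GRCm38.p6, matching 18245 (86.1%) and 12523 (59.1%) of the tested genes. At under 80%, a check of promoter composition over all calls would be void.

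Named genes were 14 fixed ones and, in each direction, the 10 called genes with the largest change (libraries not overlapping, a mean of at least 50 counts in the higher group, no predicted symbol) and the 5 with the lowest adjusted p (at least 2-fold, no predicted symbol). Up to 4 called and 2 uncalled members of each of 23 lists were added. Members and lists were chosen with earlier results of these data known, and 26 further genes, the runs of neighbours, the motifs and the sequences were chosen after values were seen. DESeq2 1.42.0, other scaling, filters, libraries and a replicate block were the alternatives.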

Additional observations from a re-analysis of the deposited data

Results flagged for a closer look

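The difference between Dppa2KO and DuxKO was compared with the same difference in cells that also lack CtBP, as the log2 change with CtBP less the log2 change without it, by an interaction test in edgeR. Of 30 genes tested, those always named or with the largest changes, 22 were called (adjusted p under 0.05). Most of them were chosen for a large difference between Dppa2KO and DuxKO, which is itself 1 side of the interaction, so neither this number nor the signs of those genes can be read against the share over all genes. The interaction is a change of a change, and its size depends on the prior count where a group is at or near 0 counts.

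Positive values, which mark a log2 change more positive with CtBP, were found for 14 genes. They were 13.64 for the synaptic gene Cplx2, 8.53 for Fbxo40, 7.37 for the heart factor Nkx2-5, 7.03 for Sh3rf2, 4.98 for Gpa33, 4.96 for Tfpi and 4.21 for Lgals3. Smaller ones were 3.91 for Pqlc1, 3.40 for Lncenc1, 3.30 for Mtus2 and 1.58 for Dppa2 itself. The methyltransferase cofactor Dnmt3l gave 1.06, and the pluripotency factors Nanog and Pou5f1 gave 0.69 and 0.44.

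Negative values were found for 8 genes, among them the germline genes Ddx4 (-6.63) and Syce1 (-5.86) and the Dlk1-Dio3 RNAs Meg3 (-5.90), Mirg (-4.21) and Rian (-3.38). The others were Rtl8b (-5.30), Zfp775 (-3.78) and H2ac1 (-3.36).

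Of the 4 WT libraries of the other table, 1 stood apart for Rtl8b. Its lowest library was at 2.19 CPM, the median was 4.18 and the highest 4.28, and the gap to the nearest library was 0.929 of the range. Chance puts about 1 in 20 groups over the threshold used, and 27 genes were examined in this way.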

How the results depend on the processing

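Of 2639 log2 fold changes recomputed for the named genes under the alternatives, 2556 kept their side of the threshold, 75 lost the call and 8 gained one, and no called value changed sign. Of the list medians 295 moved by under 0.1 on the log2 scale and 50 by more, and 130 list counts moved by over 1.5 times against 560 that did not. With a minimum log2 change of 1 the calls were 1454 for Dppa2KO against DuxKO, 950 for Dppa2KO against WT, 1140 for DuxKO against WT, 1497 for the contrast without CtBP, 2206 for the interaction and 1605 for DuxKO against WT in the other table, which this setting lowers by construction. With only the groups compared in the fit, that last count was 2104. Leaving out 1 library gave 2377 to 2888 calls for Dppa2KO against DuxKO, 1662 to 2433 for Dppa2KO against WT, 1832 to 2096 for DuxKO against WT, 2391 to 3871 without CtBP, 3059 to 4333 for the interaction and 1239 to 3528 in the other table, with a lone library assumed to vary like the other groups. The share of higher calls ran from 46.9% (upper quartile factors) to 57.5% (without the shifted chromosomes), beside 51.2%. The replicate numbers were not taken to pair the libraries, as deviations of same-numbered libraries correlated at -0.098 to 0.065 in the genotype table and at 0.035 and -0.014 for the 2 shared numbers of the other table. The replicate block gave 3517 calls (1794 higher, 1723 lower) for Dppa2KO against DuxKO, and in the other table it gave 4984 calls where the same fit without it gave 2104. Limits are the 2 libraries per group, counts of 0 to 20 behind many germline and 2-cell genes, and knockouts whose clones the labels do not describe.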
